A study of Drosophila melanogaster with 2 samples.

Results

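The genes described here are the translation initiation factor genes of Drosophila melanogaster, read for the presence of the transcriptional coactivator Taiman at their promoters. They were taken by name: every protein-coding gene of the Ensembl annotation on chromosome arms 2L, 2R, 3L, 3R, 4 and X whose symbol starts with eIF, which gave 44 of 13945 genes. The naming rule used no measured value, but the members were chosen with earlier results of these data known. Chromatin immunoprecipitation and sequencing was done with an antibody against GFP on whole larvae of the third instar at the wandering stage, males and females pooled, of unknown age. The animals came from a transgenic line, made by an insertion that targets tai, which carries eGFP at the C terminus of Taiman. The 2 replicates, which the labels number 1 and 3, form a single group, and samples of another genotype, stage or tissue were not analysed here. Because whole animals were used, a weak region cannot be told apart from a strong one present in few cells.

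Initiation is the step at which a ribosome is brought to an mRNA and placed on its start codon. eIF1 and eIF1A keep the small ribosomal subunit in a scanning state, eIF2 delivers the initiator tRNA with GTP, eIF2B recharges eIF2, and the large eIF3 complex holds the assembly together. eIF4E binds the cap of the mRNA, eIF4G is the scaffold that joins it to the ribosome, and eIF4A is the RNA helicase that unwinds the leader with help from eIF4B and eIF4H. eIF5 and eIF5B act at start codon choice and at joining of the large subunit, which eIF6 keeps apart until then. Taiman is known as a partner of the ecdysone receptor and of juvenile hormone receptors, and it promotes growth in larval tissues. The lists do not hold RNA, so they say where tagged Taiman was recovered and not how much any factor was made.

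The deposited peak lists on the dm6 build were read, 4 in all. The thresholded list, made by the authors from replicate reproducibility (IDR, irreproducible discovery rate), held 2567 regions on the arms. The list called on pooled replicates held 29974, replicate 1 held 29973 and replicate 3 held 29976, and these longer lists mix peaks with background regions. Each region has a summit, the base of its highest enrichment, and a signal value that the authors set relative to a control. Regions were ranked by signal within their list, rank 1 being the strongest, and signals of different lists are not on 1 scale. The arm regions of the IDR list were the top of the pooled list in the same order, so an IDR rank is also a pooled rank. A gene counted as having a region when at least 1 of its annotated transcription start sites (TSSs) had a summit within 1000 bp. Read depth is unknown, and both replicates share 1 control.

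The only initiation factor gene with IDR summits near a TSS is eIF4A (2L:5981764-5985909, plus strand, gene FBgn0001942), and the DNA upstream of it is shown for that reason. The 300 bases before its first TSS are shown on the plus strand, 5′ to 3′, from dm6 2L:5981464-5981763, with the letters TATCGATA in capitals. These letters are the DNA replication-related element (DRE), a site of the housekeeping promoter factor DREF. The weaker of the gene's IDR summits falls inside this stretch, and the stronger peak lies outside it.

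eIF4A upstream: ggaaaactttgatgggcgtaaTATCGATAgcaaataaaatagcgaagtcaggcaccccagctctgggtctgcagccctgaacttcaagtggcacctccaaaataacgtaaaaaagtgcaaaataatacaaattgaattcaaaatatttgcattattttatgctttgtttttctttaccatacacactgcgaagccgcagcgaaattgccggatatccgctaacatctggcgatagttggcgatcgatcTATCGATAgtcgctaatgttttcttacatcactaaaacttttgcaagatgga

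The stronger IDR summit lies further upstream, and its 101 bases (dm6 2L:5981210-5981310, plus strand) follow. No motif that was searched occurs in it, so it has no capitals.

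eIF4A stronger summit: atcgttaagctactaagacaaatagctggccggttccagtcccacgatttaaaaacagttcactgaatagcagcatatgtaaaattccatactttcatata

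The other parts of the cap-binding complex had weaker regions near a TSS, below the IDR list. The 101 bases around the strongest pooled summit near a TSS of each are shown on the strand of the gene. That of eIF4E1 is dm6 3L:9402620-9402720 and that of eIF4G1 is dm6 4:930947-931047, both read from the minus strand. Neither holds a motif that was searched.

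eIF4E1 summit: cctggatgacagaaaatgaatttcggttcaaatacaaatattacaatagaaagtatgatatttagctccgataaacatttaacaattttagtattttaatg
eIF4G1 summit: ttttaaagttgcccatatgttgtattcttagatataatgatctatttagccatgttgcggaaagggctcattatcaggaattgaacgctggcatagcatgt

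One initiation factor gene of 44, eIF4A, had an IDR summit near a TSS, which is 2.27%. Over all protein-coding genes on the arms the share was 7.91%, or 1103 of 13945 genes. No test was run on this difference, since the design has 1 group and the genes are not replicates of a condition. The initiation factors thus stood below the genome-wide share in the list that the authors thresholded, and the only gene with a peak codes for the helicase. The same gene alone was found when each replicate was cut to its 2567 strongest regions. The genome-wide share was 9.39% in replicate 1 so treated, 7.87% in replicate 3, and 5.21% for genes found in both.

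**Figure D1:**
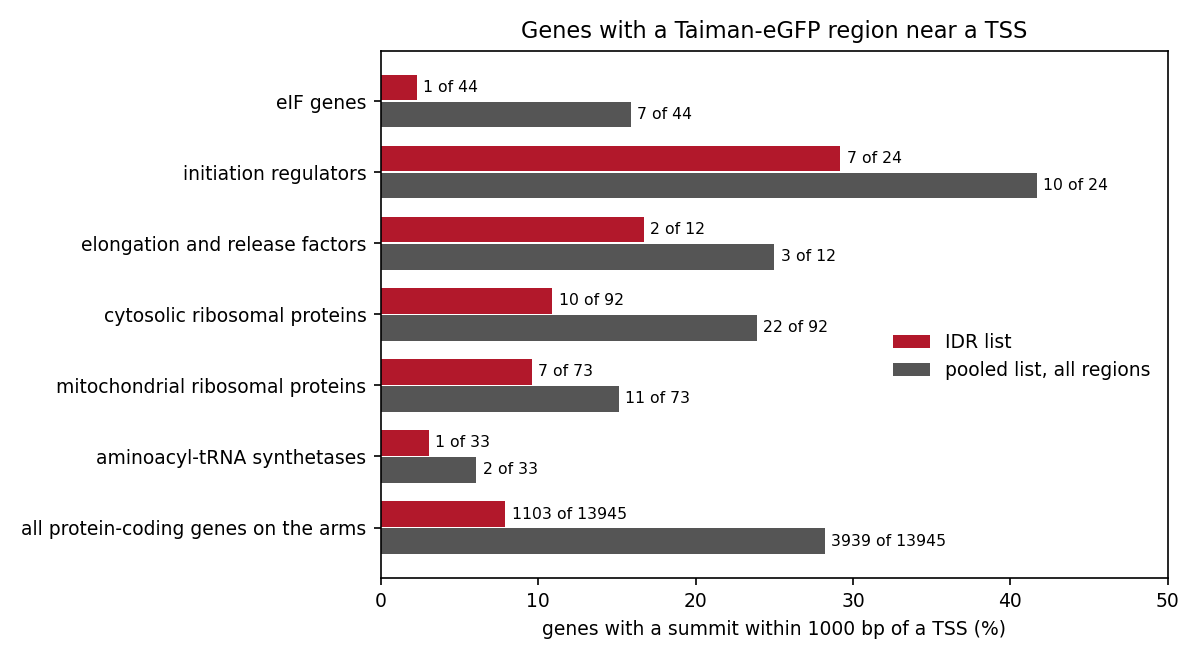
Horizontal bars give the percent of genes with a summit within 1000 bp of a TSS, in the IDR list (red) and in the whole pooled list (grey), for the initiation factors, 5 other lists and all protein-coding genes, with the number of genes beside each bar. The initiation factors stand at 1 of 44 and 7 of 44, below all protein-coding genes in each list.

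In the longer lists, which reach down to background, the initiation factors were again below the genome. The pooled list placed a summit near 7 of the 44 genes (15.9%), compared with 28.2% of all genes. Replicate 1 did so for 10 (22.7%, compared with 31.3%) and replicate 3 for 6 (13.6%, compared with 29.8%). In both replicate lists at once 5 genes had a region, namely eIF4A, eIF4B, eIF4E1, eIF4E5 and eIF4G1 (11.4%, compared with 22.7%). All 4 lists had one at eIF4A alone (2.27%, compared with 7.47%). In none of the 4 lists did 33 of the 44 genes have a summit near a TSS (75%), compared with 60.8% of all genes.

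All 7 genes with a pooled region bear eIF4 symbols. They are the helicase gene eIF4A, the helicase cofactor gene eIF4B, the scaffold gene eIF4G1, and 4 genes of the cap-binding family, eIF4E1, eIF4E3, eIF4E5 and eIF4E7. Of the 13 genes whose symbol starts with eIF4, 7 had a pooled region, 8 a region in replicate 1 and 5 in replicate 3, where the shares over all genes were 28.2%, 31.3% and 29.8%. Of the 31 other initiation factor genes, 0 had a pooled region, 2 had one in replicate 1 and 1 in replicate 3, against the same shares over all genes. The 3 exceptions were each in a single replicate. This split by symbol was noticed in the data and was not tested. eIF4A, eIF4E1 and eIF4G1 encode the parts of the cap-binding complex eIF4F, and they held the first 3 places among the initiation factors in the pooled list. Neither replicate gave that order: eIF4H1 (rank 4714) was ahead of eIF4G1 (7602) in replicate 1, and eIF4E5 (5169) was ahead of eIF4G1 (9544) in replicate 3.

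**Figure D2:**
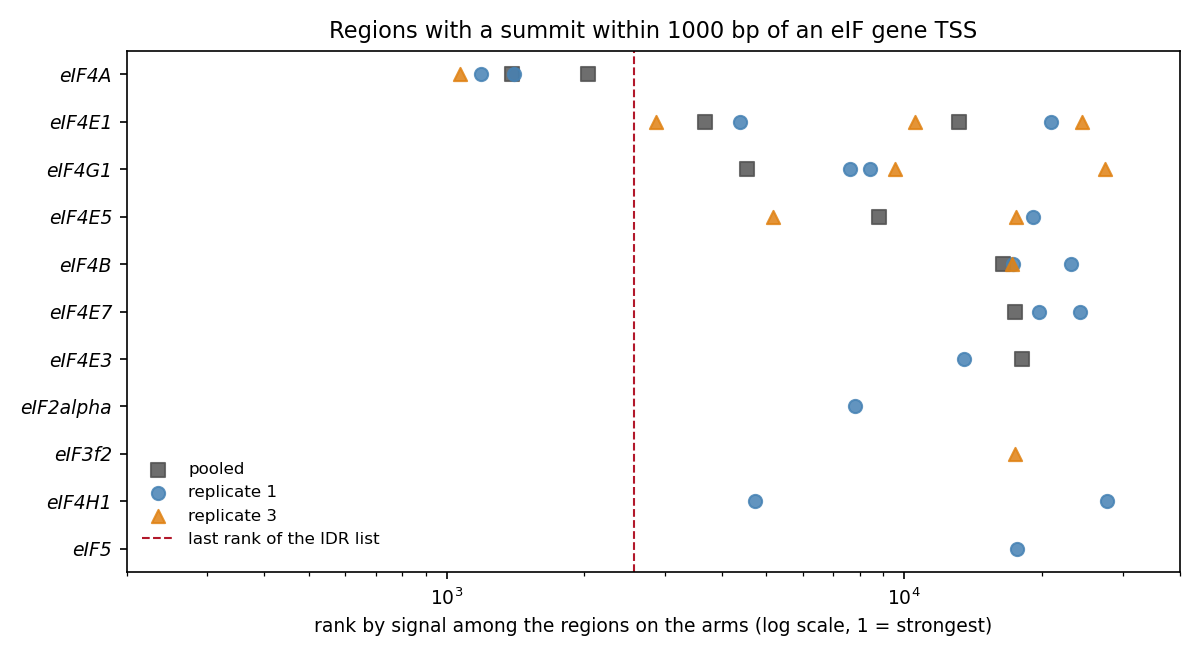
Each symbol is a region with a summit within 1000 bp of a TSS of the gene on the vertical axis, and the horizontal axis (log scale) is its rank by signal in the pooled list (squares), replicate 1 (circles) or replicate 3 (triangles). The dashed line marks rank 2567, the last of the IDR list, and only regions of eIF4A lie to its left.

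eIF4A had a pair of IDR summits, both upstream of its first TSS and both between genes. The first had signal 85.7, rank 1389, and lay 504 bp upstream (2L:5981058-5981461, summit 5981260). The second had signal 71.6, rank 2034, and lay 127 bp upstream (2L:5981435-5981838, summit 5981637). Both signals were below the median of the arm IDR peaks, 89.1, so these are weaker peaks of that list. The summits were 377 bp apart and their intervals shared 27 bp.

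The stretch that holds them is shared with chic, the profilin gene, whose product binds actin. chic runs the other way, and its nearest TSS lies 746 bp from that of eIF4A, with 745 bp between the genes. The stronger summit was nearer to chic, at 242 bp from its TSS, and the weaker was nearer to eIF4A. Replicate 1 put its summits at 335 and 96 bp from eIF4A, with signals of 62.2 and 56.8 and ranks of 1190 and 1404. Replicate 3 had a single summit, with signal 43.8 and rank 1068, which lay 568 bp from eIF4A and 178 bp from chic. Both replicates thus listed a region between the genes, and only replicate 1 had a summit nearer to eIF4A than to chic.

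The stronger IDR peak overlapped the replicate 3 region by 336 bp, with summits 64 bp apart, and the nearest replicate 1 region by 245 bp, with summits 169 bp apart. The weaker IDR peak overlapped a replicate 1 region by 383 bp, with summits 31 bp apart, and overlapped no region of replicate 3. The peak nearer to eIF4A is therefore seen in the pooled list and in replicate 1 alone. Assigned only to the gene with the nearest TSS, eIF4A keeps its place among genes with an IDR summit through that weaker peak.

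**Figure D3:**
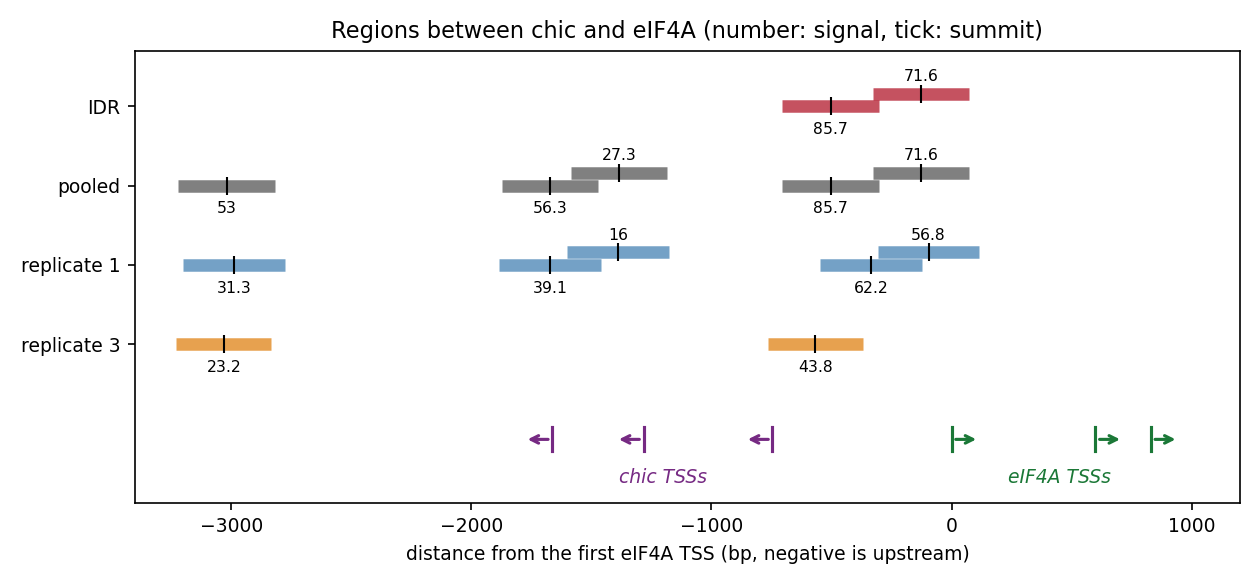
Bars are the regions of each list drawn by distance from the first eIF4A TSS (horizontal axis, bp), with a tick at the summit and the signal as a number, and arrows show the TSSs of chic and eIF4A with their direction. The IDR peaks of signal 85.7 and 71.6 lie between the divergent genes, and replicate 3 has a single region there, on the side of chic.

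The weaker peak of eIF4A held the DRE letters at a pair of positions, which begin at -279 and -52 relative to the TSS. The one at -52 lies 75 bp from the summit. The interval also held the E-box letters CACGTG, which begin 35 bases after the TSS. The stronger peak held no match to any of the 6 motifs searched on both strands: the DRE, the Motif 1 letters GGTCACACT, the E-box, its variant CACGCG, the nuclear receptor letters AGGTCA and the repeat GAGAG. A match says only that the letters are there.

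eIF4E1, the main cap-binding protein gene (3L:9399618-9402460, minus strand, 4 TSSs), came next. Its strongest pooled summit near a TSS had signal 56.8, rank 3663, and lay 210 bp upstream. A second pooled summit 878 bp upstream had signal 36.1, rank 13143. In replicate 1 the best region was 253 bp upstream with signal 34.9, rank 4384, and in replicate 3 it was 870 bp upstream with signal 31.2, rank 2864. The replicates therefore ranked different parts of this upstream region first. Replicate 3 also had weaker summits at 54 and 275 bp upstream, with ranks of 10552 and 24497.

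A pair of IDR peaks lay just past the other end of eIF4E1, but these sit at another gene. Their summits were 26 and 228 bp from the TSS of CG4080, with signals of 91.4 and 72.3 and ranks of 1222 and 1995, and they were 2350 bp or more from any TSS of eIF4E1. They rank above every region near a TSS of an initiation factor other than eIF4A.

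eIF4G1, the scaffold gene (4:915297-930715, minus strand), had a pooled summit 282 bp upstream with signal 52.7, rank 4530. Replicate 1 had summits 16 and 258 bp upstream, with signals of 28.4 and 27.3 and ranks of 7602 and 8420. Replicate 3 had its best summit 265 bp upstream, with signal 21.8, rank 9544. A summit about as far upstream as the pooled one was thus listed in both replicates. On chromosome 4, however, 100% of the 80 protein-coding genes had a pooled summit near a TSS, and 25% had an IDR summit, so a weak region there is the rule. eIF4G1 is the sole initiation factor gene on that chromosome, and it held none of the IDR summits.

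The paralogues of eIF4E1 had weaker regions than eIF4G1 in the pooled list and in replicate 1, while eIF4E5 had a stronger one in replicate 3. eIF4E5 (3L:7894880-7896009, plus strand) had a pooled summit 35 bp upstream with signal 41.9, rank 8791. Its best region ranked 5169 in replicate 3, 198 bp upstream, and 19123 in replicate 1, 68 bp upstream. eIF4E7 (X:1158599-1162389, minus strand) had a pooled summit 25 bp upstream with signal 32.3, rank 17468, and regions in replicate 1 alone, the best at rank 19668. eIF4E3 (3L:8229224-8230568, plus strand) had one 124 bp upstream with signal 31.8, rank 18089, and one in replicate 1 at rank 13504. These last signals lie below the pooled median of 34.3, in a list that includes background regions. eIF4E4, eIF4E6 and eIF4EHP, which codes for a cap-binding repressor of translation, had no summit near a TSS in any list.

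Of the helicase cofactors, eIF4B (3L:27842669-27858271, minus strand) had a pooled summit 67 bp upstream with signal 33.1, rank 16402. Replicate 3 had its summit at the same base, rank 17232, while replicate 1 had summits 954 and 729 bp upstream, at ranks of 17275 and 23092. eIF4H1 (X:16448665-16454972, plus strand) had a region in replicate 1 alone, 163 bp upstream with signal 34.0, rank 4714, and a second at rank 27695. eIF4H2 had none in any list. Both replicates thus listed a region at eIF4B, but at different positions.

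Of the factors outside the cap-binding group, 3 genes had a region, each in 1 replicate. eIF2alpha, which codes for the regulated subunit of eIF2, had a summit in replicate 1, 301 bp upstream with signal 28.1, rank 7803. eIF5, the GTPase activator of eIF2, had one in replicate 1, 323 bp upstream at rank 17636, which was nearer to the TSS of the neighbouring exd (171 bp), a Hox cofactor gene. eIF3f2 had one in replicate 3, 731 bp upstream at rank 17426. The pooled list held none of these.

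The remaining 33 genes had no summit within 1000 bp of a TSS in any of the 4 lists, and they cover most of the machinery. They include eIF1 and eIF1A, the eIF2 subunit genes eIF2beta and eIF2gamma, and all 5 eIF2B subunit genes, eIF2Balpha, eIF2Bbeta, eIF2Bgamma, eIF2Bdelta and eIF2Bepsilon. Of the 16 eIF3 genes, 15 were among them, namely eIF3a, eIF3b, eIF3c, eIF3d1, eIF3d2, eIF3e, eIF3f1, eIF3g1, eIF3g2, eIF3h, eIF3i, eIF3j, eIF3k, eIF3l and eIF3m. The others were eIF2A, eIF2D, eIF4E4, eIF4E6, eIF4EHP, eIF4G2, eIF4H2, eIF5B and eIF6. A missing region says that none was listed within reach, not that Taiman was absent. Depth is unknown, the longer lists each stop at about the same number of regions, and the IDR list stops at 2567.

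The nearest summit was often far away. From the nearest TSS of an initiation factor gene to the nearest IDR summit the median distance was 33451 bp (quartiles 17964.5 and 68238), compared with 28412 bp over all genes (10644 and 65237). To the nearest pooled summit it was 10937 bp (quartiles 4225 and 20194.2), compared with 6181 bp (704 and 15473). Of the initiation factor genes, 6 of 44 (13.6%) had an IDR summit within 10000 bp, compared with 23.9% of all genes, and 13 (29.5%) had one within 20000 bp, compared with 39.9%. Within 50000 bp it was 29 (65.9%, compared with 66.9%), and within 100000 bp it was 35 (79.5%, compared with 85.6%). The initiation factors were thus below all genes at each of these distances, by the least at 50000 bp. After eIF4A and eIF4E1, the genes within 10000 bp of an IDR summit were eIF3l at 7362 bp, eIF4E5 at 9054 bp, eIF4EHP at 9908 bp and eIF3j at 9964 bp. The farthest were eIF4B at 590991 bp and eIF3a at 219594 bp.

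**Figure D4:**
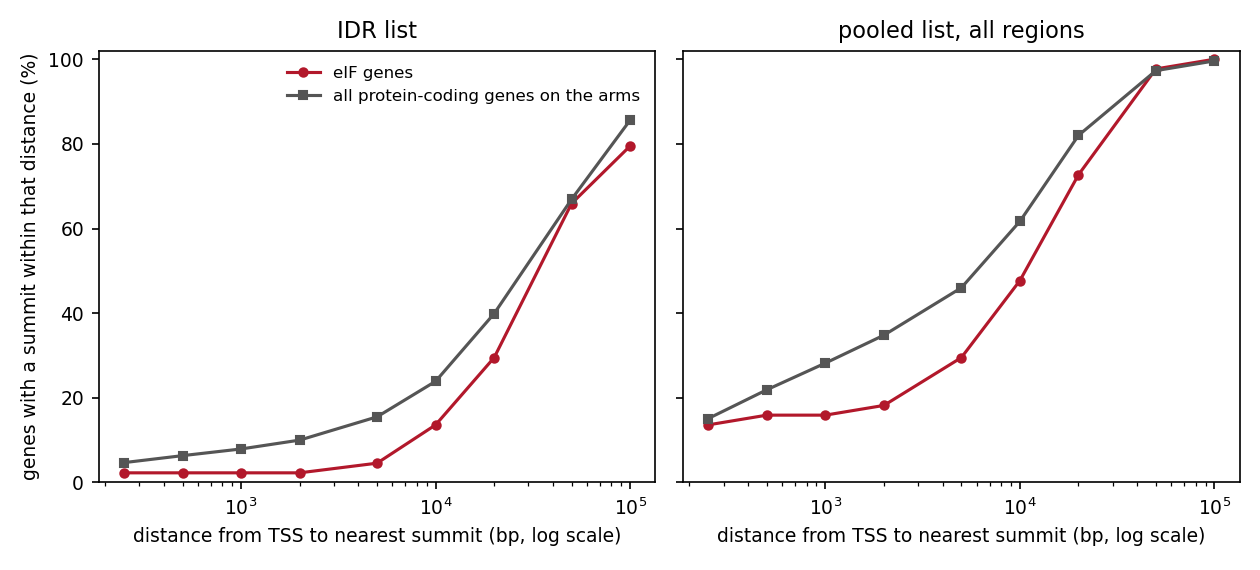
Lines give the percent of genes whose nearest summit lies within the distance on the horizontal axis (bp, log scale), for the initiation factors (red) and all protein-coding genes (grey), in the IDR list on the left and the pooled list on the right. The initiation factors lie below all genes at 1000 to 10000 bp in both lists, and within about 1 percentage point of them at 50000 bp.

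Inside gene bodies, a pair of long genes held IDR summits. eIF5B (3L:3428658-3460977, minus strand, 32320 bp) held 4, all in its introns, with signals of 95.3, 82.3, 77.8 and 75.3 and ranks of 1120, 1486, 1691 and 1809. The nearest of them to a TSS of eIF5B lay 17621 bp away, and the other 3 were nearer to sty, the Sprouty gene. eIF4EHP (3R:24063077-24108960, minus strand, 45884 bp) held 1 in an intron, with signal 73.7, rank 1907, overlapping regions of rank 1612 in replicate 1 and 12816 in replicate 3. That summit was nearer to the TSS of Syx1A (6711 bp) than to that of eIF4EHP (9908 bp). Counting gene bodies with 1000 bp on either side, 4 of the 44 genes had an IDR summit (9.09%), compared with 11.6% of all genes. eIF4E1 was among these 4 only through the peaks at CG4080.

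The counts were also read by number of TSSs. Of the initiation factor genes, 29 have 1 annotated TSS, and 0 of these had an IDR summit near it, compared with 4.94% of all genes with 1 TSS. The 15 with 2 or more TSSs gave 1, compared with 16.1% of all such genes. Both values were below the genome-wide share of their class. They rest on counts of 0 and 1, too small to read as a difference within a class, and no test was run. The median length of the 44 genes was 1967.5 bp, compared with 2166 bp over all genes. By arm, the pooled regions fell near 4 of 11 genes on 3L, 0 of 13 on 3R and 0 of 9 on 2R, where 32.4%, 26.4% and 24% of all genes had one.

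The DRE was in a larger share of initiation factor promoters than of all promoters, a difference that was not tested. Within 250 bases before to 50 after the most upstream TSS, 12 of 44 (27.3%) held TATCGATA, compared with 9.36% of all protein-coding genes and 12.8% of genes with an IDR summit. Cytosolic ribosomal protein genes had a similar share, 28 of 92 (30.4%). Of the 12, 9 had no region in any of the 4 lists, as did 24 of the 32 without the element. Genes with and without the element thus lacked a region in the same proportion, 75%, compared with 60.8% of all genes. These counts are small and were not tested. The sites of 10 of the 12 genes with the element are shown. They set eIF4A and eIF4B, which had pooled regions, beside promoters that hold the same letters and had no pooled region. Of the latter, eIF2alpha did have a region in replicate 1. Each line gives 28 bases on the strand of the gene with the element in capitals, and for eIF2gamma, which has 3 sites, the one nearest to the TSS.

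eIF4A: gcgatcgatcTATCGATAgtcgctaatg
eIF4B: ccgaaataaaTATCGATAacgatatagg
eIF1A: tgatgatagaTATCGATAgctttagcgg
eIF2alpha: cgcaattaaaTATCGATAacaccactgt
eIF2Bbeta: gcctgccgccTATCGATAacattgctcg
eIF2gamma: attagagcacTATCGATAggcattgtcg
eIF3a: cggcctgaacTATCGATAacgcagccag
eIF3f1: ccacccgcacTATCGATAggcccttttc
eIF3l: gtagtatcatTATCGATAgttggtcaca
eIF4E6: tcacgcgataTATCGATAtgtttcgatt

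Relative to the TSS the elements begin at -52 in eIF4A, -19 in eIF4B, -202 in eIF1A, -13 in eIF2alpha, -9 in eIF2gamma, -38 in eIF3a, -8 in eIF3f1, -18 in eIF3l and -58 in eIF4E6, and 28 bases after it in eIF2Bbeta. All of the 10 but that of eIF1A thus lie close to the start, whether or not a region was listed. In the genes not printed the element begins at -220 in eIF3c and at -11 in eIF6, and neither had a region in any list. In dm6 the printed bases are 2L:5981702-5981729 for eIF4A, 3L:27858273-27858300 for eIF4B, 3R:18274453-18274480 for eIF1A, X:16446989-16447016 for eIF2alpha and X:2704589-2704616 for eIF2Bbeta. The others are 3R:15263450-15263477 for eIF2gamma, 3R:4433916-4433943 for eIF3a, 3R:4714173-4714200 for eIF3f1, 3L:12146098-12146125 for eIF3l and 3R:29027215-29027242 for eIF4E6.

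Each of the other motifs was in 7 or fewer promoters. CACGCG, which the mosquito homologues of Taiman and its partner Met bind, was in 6 of 44 promoters (13.6%, compared with 6.12% of all). All 6 lacked a pooled region, as did 37 of the 44 genes as a whole, and over all genes 28.2% had one. GAGAG was in 7 (15.9%, compared with 29.7%), Motif 1 in 3 (6.82%, compared with 6.05%), CACGTG in 3 (6.82%, compared with 4.2%) and the nuclear receptor letters AGGTCA in 2 (4.55%, compared with 5.88%). The TCT initiator, read only where its C is the annotated first base, was in 1 (2.27%, compared with 1.44%), and in 0 of 92 cytosolic ribosomal protein genes, a reading that depends on the annotated base. A TSS of another gene on the opposite strand lay within 1000 bp upstream of 20 of the 44 genes (45.5%, compared with 35.2% of all). Of these 20 divergent pairs, eIF4A with chic alone had an IDR or pooled region near the factor's TSS, compared with 9.3% (IDR) and 18.4% (pooled) of all genes with such a partner. Of the 24 genes without one, 6 had a pooled region, compared with 33.6% of all such genes.

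Genes listed as regulators of initiation, whose symbols do not start with eIF, had IDR summits more often than the factors. Of a list of 26 such regulators, 24 matched a symbol, and 7 of these (29.2%) had an IDR summit near a TSS, compared with 7.91% of all genes. The list was written with earlier results of these data known, so its count is no independent evidence, and the difference was not tested. In the strongest 2567 regions of replicate 1 alone the count was 5 (20.8%, compared with 9.39% of all genes). In those of replicate 3 alone it was 7 (29.2%, compared with 7.87%), and 3 genes were found in both (12.5%, compared with 5.21%). The replicates thus did not give the same genes, and some of the genes counted had no IDR summit near a TSS.

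The strongest were at a kinase and an RNA-binding protein. Lk6, whose product phosphorylates eIF4E, had a summit at the edge of reach, 999 bp upstream of a TSS (3R, summit 11761078). Its signal was 683, rank 10 in the pooled list, and the peak overlapped regions of rank 23 in replicate 1 and 8 in replicate 3. The replicate 1 region had its summit out of reach, so Lk6 is not in the replicate 1 count, nor among the genes found in both. Replicate ranks of the genes that follow are likewise those of overlapping regions. larp, which codes for a La-related RNA-binding protein, had a summit 326 bp upstream (3R, summit 28326590) with signal 625, rank 19, and ranks of 16 and 15 in the replicates. Both peaks were far stronger than that at eIF4A in every list.

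The other regulators had weaker peaks. crc, the ATF4 gene, had signal 90.1, rank 1261, 25 bp upstream, with ranks of 2164 and 1250 in replicates 1 and 3. MCTS1, a reinitiation factor gene, had signal 93.9, rank 1155, 507 bp upstream, but the summit was nearer to rux (123 bp) and overlapped no region of replicate 1. rin, the G3BP gene, had signal 74.3, 48 bp upstream, with ranks of 1501 and 1300. Paip2, whose product binds poly(A)-binding protein, had signal 73.1, 72 bp upstream, with ranks of 1806 and 8843. me31B, an RNA helicase gene of translational repression, is the seventh, with signal 70.7, rank 2090, and ranks of 11557 and 866.

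Factors of the later steps of translation had 2 of 12 genes with an IDR summit (16.7%, compared with 7.91% of all genes). eRF1, the release factor that reads stop codons, had signal 164, rank 375, 105 bp upstream, with ranks of 330 and 919 in replicates 1 and 3. eEF2, the elongation factor that moves the ribosome along, had signal 68.8, rank 2251, 32 bp upstream, with ranks of 4822 and 1818. For the same measure, cytosolic ribosomal protein genes gave 10 of 92 (10.9%), mitochondrial ones 7 of 73 (9.59%) and aminoacyl-tRNA synthetase genes 1 of 33 (3.03%), again beside 7.91% of all genes. Differences between these lists were not tested.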

How the data were processed

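Peak lists of chromatin immunoprecipitation against GFP in tai-eGFP larvae were used as deposited, in narrowPeak layout on dm6. Per the deposited text records, 1 control alignment served every call, the pooled list drew on both replicates, and the authors made the IDR list from those calls. The sources used here name no aligner or caller. The signal of each region is the authors' own value relative to the control, on a scale not stated, and was used only to rank and describe regions within a list. The lists on dm3 were not used here, since the genes were placed on dm6.

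Genes and TSSs came from Ensembl release 115 of BDGP6, and sequences from the RefSeq genome of that assembly. Coordinates are 1-based. Protein-coding transcripts gave the TSSs. A table of promoters was not used here, and windows were cut from the genome. Python 3.11.15 with numpy 2.4.6, pandas 2.3.3 and matplotlib 3.10.9 was used. The assignment of summits to genes was tested on simulated data. No test of difference was run, since there is 1 group.

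The members and lists were chosen with earlier results of these data known. Named are all initiation factor genes with an IDR summit or a summit in either replicate's strongest 2567 regions, the next 5 by pooled signal, those with no summit in any list, and up to 6 genes each of the regulators and of the elongation and release factors. Genes of the 3 other lists, which the same rule would name, are given as counts only. The other initiation factor genes (eIF3f2, eIF4E3, eIF4H1, eIF2alpha, eIF5, and eIF5B and eIF4EHP for their bodies) and me31B were added after their values were seen.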

Additional observations from a re-analysis of the deposited data

How the results depend on the processing

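The count of 1 initiation factor gene with an IDR summit was the same with a reach of 500 or 2000 bp, with the nearest or the most upstream TSS alone, with peak intervals in place of summits, and in each replicate alone (1 in each). Over all genes the share under these choices ran from 6.33% to 10%. The count was 0 with the 1283 strongest IDR peaks (4.95% of all genes). It was 4 with gene bodies counted (11.6% of all genes), a choice made after seeing the data. In the strongest regions of both replicates the count of 1 became 0 with a reach of 500 bp (4.14% of all genes). The reason is that the replicate 3 summit at eIF4A lies 568 bp away. With double the number of regions the count was 2, when eIF4E1 was added (7.92% of all genes). With the 1283 strongest IDR peaks the regulators fell from 7 genes to 4 and the elongation and release factors from 2 to 1, while the share over all genes fell from 7.91% to 4.95%. With a reach of 500 bp there were 5 regulators, without Lk6 and MCTS1 (6.33% of all genes), and with 2000 bp there were 9 (10%). With the most upstream TSS alone there were 5, without Lk6 and larp, the strongest of them (6.64% of all genes). The nearest TSS alone gave 6 (6.63%) and peak intervals gave 8 (8.3%). The elongation and release factors stayed at 2 under these choices, except for 3 with 2000 bp. Leaving out replicate 3 gave 5 regulators and 1 gene of the elongation and release factors, where the share over all genes was 9.39%. Leaving out replicate 1 gave 7 and 3, where that share was 7.87%. The rank of eIF4A was then 1190 and 1068 in turn, and it was 1389 in the pooled list. No paired analysis was possible because there is 1 group. Depth is unknown, so it could not be said how weak a region these lists could have held.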

Other observations

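eIF2alpha, eIF3f2, eIF4H1 and eIF5 had a region near a TSS in 1 replicate and none there in the pooled list. eIF3d2 had a pooled region past its far end, 2393 bp from its TSS, with signal 32.5 and rank 17172. eIF4G1 had 6 pooled summits in or near its body, the strongest of them in an intron 7860 bp from the TSS, with signal 56.4 and rank 3739, which was above the rank of 4530 at its promoter. eIF4EHP, which is 45884 bp long, had 24 pooled summits in or near its body, and eIF5B, at 32320 bp, had 17. These are long genes, and their counts were not set against other genes of such length.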
